A study of Caenorhabditis elegans with 91 samples.

Results

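saeg-2, saeg-1 and egl-4 are 3 protein-coding genes of Caenorhabditis elegans that act together in the control of odour-guided behaviour. They were taken by name from the count table of each library, and no measured value entered the choice. The 27 mRNA tables hold all 3 genes among 30199, and the 64 small RNA tables hold 2 of them, saeg-2 and saeg-1, among 21965. Small RNAs of egl-4 were not analysed here, so each statement on egl-4 concerns mRNA. In the deposited tables saeg-2 is WBGene00011964 (T23G5.6, chromosome III), saeg-1 is WBGene00010012 (F53H10.2, chromosome V) and egl-4 is WBGene00001173 (F55A8.2, chromosome IV).

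egl-4 encodes the cGMP-dependent protein kinase that moves into the nucleus of the AWC olfactory neurons when an odour persists and that adapts the animal to it. saeg-1 and saeg-2, named as suppressors of activated egl-4, encode nuclear proteins that act downstream of this kinase together with the histone deacetylase HDA-2. Small RNAs that match an mRNA guide Argonaute proteins to it and lower its level. In the worm, double-stranded RNA is first bound by RDE-4, a partner of Dicer, and secondary small RNAs are then copied from the target mRNA by RNA-dependent RNA polymerases. SID-1 is the channel through which cells take up double-stranded RNA, and small RNAs of the germline can be passed on to progeny.

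One-day-old adults fed on OP-50 were used whole, as isolated neurons or as dissected gonads, at 20 °C unless 25 °C is stated. N2 is the wild-type strain, and the reference strain carried rde-4(ne299), a mutant allele of rde-4. In pigSi3 animals this mutant held a transgene in which the sng-1 promoter, active throughout the nervous system, drives rde-4 followed by SL2 and yfp, together with cb-unc-119(+). pigEx9 also used the sng-1 promoter and carried Pmyo-3::Mcherry, whereas pigEx10 used the neuronal rgef-1 promoter and carried Punc-122::gfp. P0 denotes carriers of pigEx9 or pigEx10, F1 and F3 denote their rde-4 mutant descendants without the transgene, and pigSi3 F3 denotes rde-4 mutants 3 generations after a heterozygous pigSi3 ancestor. The sid-1 groups carried sid-1(qt9) with rde-4(ne299), with or without pigSi3. All neuron libraries, also those called WT, came from strains with otIs356, which marks neuronal nuclei with TagRFP from a rab-3 promoter. Nothing in the labels tells if replicates came from separate cultures, so p-values measure only the spread between these samples, which may be technical.

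Whole animals gave 47 small RNA libraries, neurons 6 and gonads 11, and neurons gave 12 mRNA libraries and gonads 15. Groups held 3 libraries, except 11 for rde-4 in whole animals at 20 °C, 6 for pigEx9 P0, 4 for each neuron mRNA group, 2 for each neuron small RNA group and 2 for each gonad small RNA group other than rde-4. Counts in genes per library ranged from 1792 to 31077625 in whole animals, from 735328 to 2530023 in neuron and from 1841973 to 49953667 in gonad small RNA, and from 2746062 to 36765116 in mRNA. The library with 1792 counts, pigEx9 F1 replicate 3, was left out of every level and test, which leaves 2 for that group. Levels are CPM, counts scaled to the gene counts of each library, with TMM factors over all libraries of an assay, and tests are edgeR quasi-likelihood tests with Benjamini-Hochberg adjusted p over all genes tested in the comparison, with 0.05 as the threshold. In neurons rde-4 mRNA averaged 3.51 CPM in rde-4 mutants, 18.7 in WT and 343 in pigSi3, in the order of the labels. The 10 neuron markers summed to 6608 to 44590 CPM in the mRNA of neurons and 88.6 to 136 in that of gonads, and the 8 germline markers to 109 to 538 and 3360 to 8483. The 6 muscle markers summed to 7424 to 28839 CPM in neuron mRNA. In small RNA of whole animals the same markers summed to a mean of 13.6 CPM in N2 at 20 °C and 889 in pigEx10 P0. Whether the reads in neurons came from muscle or from transgene sequence was not tested. Small RNAs of the germline markers reached 1228 to 1588 CPM in neurons against 1448 to 2354 in gonads. In bulk samples, fewer cells of a type and less RNA per cell cannot be told apart.

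saeg-2 small RNAs were abundant wherever RDE-4 was present in neurons through N2, WT or pigSi3, and scarce in rde-4 mutants. In whole N2 at 20 °C they measured 3935, 3939 and 3081 CPM, and in whole pigSi3 animals 2653, 2478 and 2240.2 CPM. The 11 rde-4 libraries ran from 316 through a median of 439.6 to 510.1 CPM. No N2 or pigSi3 library came near the mutant range, and every pigSi3 library lay below every N2 library. With the 3 rde-4 libraries listed beside them as controls, saeg-2 small RNAs were 7.77-fold higher in N2 (log2 difference 2.96, SE 0.137, adjusted p = 9.23e-08) and 5.43-fold higher in pigSi3 (log2 2.44, SE 0.134, adjusted p = 3.22e-06). Of 12800 genes tested, 14.5% were higher in N2 and 1.92% higher in pigSi3, and in pigSi3 saeg-2 stood at rank 18 by log2 difference and rank 7 by p. The difference between pigSi3 and N2 was -0.52 (SE 0.127, adjusted p = 0.0153), where 10.6% of genes were lower. That call was lost without N2 replicate 1 (-0.45, adjusted p = 0.0611), N2 replicate 2 (-0.48, adjusted p = 0.0665) or pigSi3 replicate 2 (-0.52, adjusted p = 0.0506), and with library totals in place of TMM (-0.26, adjusted p = 0.0832). Replicate numbers paired the libraries of these 3 groups, and with the replicate block the genes called rose from 750 to 1554 in pigSi3 and from 2890 to 4771 between pigSi3 and N2, with no call of saeg-2 or saeg-1 changed.

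**Figure D1:**
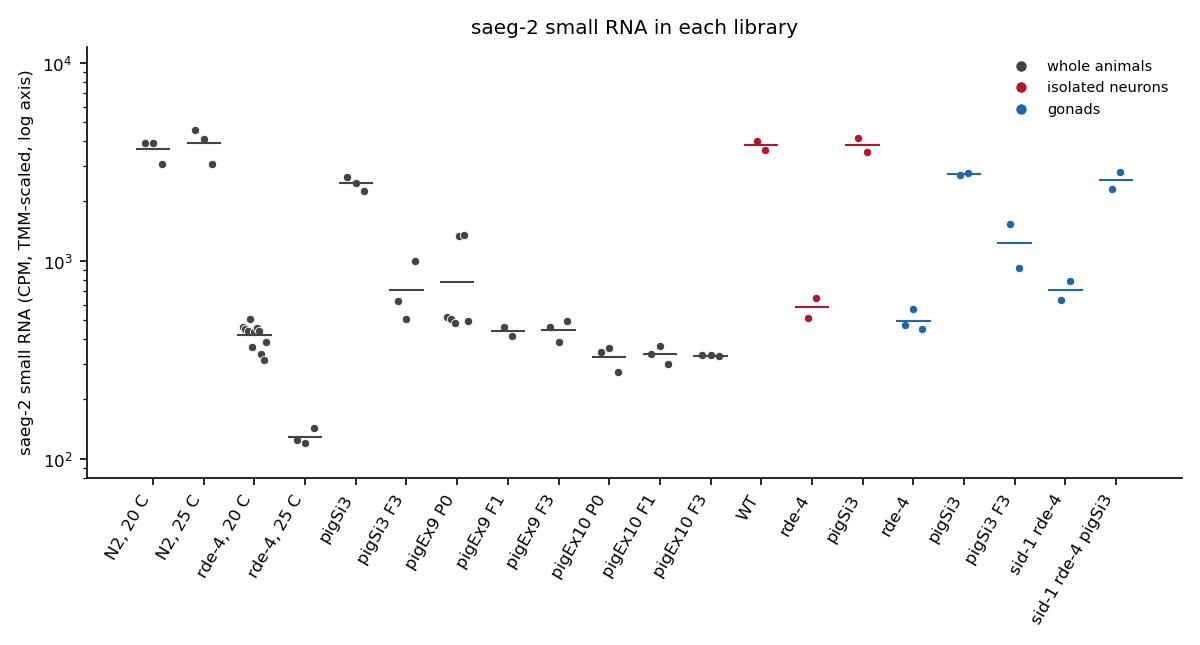
saeg-2 small RNA level in each library (CPM scaled by TMM, log axis) by group, with whole animals in grey, isolated neurons in red and gonads in blue; points are libraries and lines are group means. N2, WT and pigSi3 libraries sit between 2240.2 and 4566 CPM, and the rde-4 libraries at 25 °C between 120.2 and 143.

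saeg-1 small RNAs moved in the same direction in whole animals but by less. They measured 469, 410.3 and 386 CPM in N2, 429, 361 and 328 CPM in pigSi3, and 110.0 through a median of 157 to 212 CPM over the 11 rde-4 libraries. Neither N2 nor pigSi3 overlapped the mutant range, and N2 and pigSi3 overlapped each other. The log2 difference from rde-4 was 1.22 in N2 (SE 0.159, adjusted p = 0.000324) and 1.10 in pigSi3 (SE 0.159, adjusted p = 0.00242). Between pigSi3 and N2 it was -0.12 (95% interval -0.47 to 0.22, adjusted p = 0.598).

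The extrachromosomal arrays gave other values. saeg-2 small RNAs in pigEx9 P0 measured 522, 506, 483, 1329, 1350.1 and 497 CPM in replicates 1 to 6, so replicates 4 and 5 stood well above all rde-4 libraries, replicate 1 just above them, and the other 3 within their range. Replicates 1 to 3 and 4 to 6 are listed in separate places in the records, each with rde-4 libraries of their own. With this listing as a term the log2 difference was 0.71 (SE 0.254, adjusted p = 0.124, against 6.15% of 11121 genes called). It was 0.12 (adjusted p = 0.663) for replicates 1 to 3 alone, 1.26 (adjusted p = 0.215) for replicates 4 to 6 alone, and it passed the threshold without replicate 6 (0.83, adjusted p = 0.0381) or with all 11 rde-4 libraries as controls (0.89, adjusted p = 0.015). Gene counts were 21980467 to 29314842 in replicates 1 to 3 against 4463078 and 3569387 in the rde-4 libraries listed with them. Replicates 4 to 6 and their rde-4 libraries held 2569735 to 5705370. The part of depth in these differences was not tested. With 0.108% of genes called in F1 and 0.0270% in F3, pigEx9 descendants differed less. Their saeg-2 small RNAs measured 465 and 416 CPM in F1 and 460.5, 389.8 and 496 CPM in F3, all within the mutant range. With the listing term the log2 differences were 0.25 (95% interval -0.52 to 1.03, adjusted p = 0.928) in F1 and 0.35 (-0.35 to 1.04, adjusted p = 1) in F3. All F1 and F3 libraries used are listed with P0 replicates 1 to 3, and within that listing alone the differences from rde-4 were -0.05 in F1 and 0.04 in F3 (adjusted p = 0.921 and 0.985). Between P0 and F3 the log2 difference was 0.36 (-0.34 to 1.07, adjusted p = 0.861, with 1.21% of genes called) with the listing term and 0.09 (adjusted p = 0.831) within that listing alone.

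pigEx10 libraries held 273 to 369 CPM of saeg-2 small RNAs over 9 libraries of P0, F1 and F3. Each of these lay within the rde-4 range or below it. The log2 differences from the 3 rde-4 libraries listed with them were -0.09 in P0 (95% interval -0.33 to 0.16), -0.06 in F1 (-0.30 to 0.18) and -0.07 in F3 (-0.31 to 0.17), so a rise of the size seen in pigSi3 lies outside all these intervals. Between P0 and F3 it was -0.02 (-0.26 to 0.23, adjusted p = 0.995, with 0.800% of genes called). Of 11252 genes, 1.80% were called in P0 and 0.355% in each of F1 and F3. Small RNAs counted to rde-4 itself, which include any copies of the transgene, reached 2532 to 3847 CPM in pigEx10 P0 and 3220 to 7816 in pigEx9 P0. They measured 84.2 to 90.3 CPM in whole pigSi3 animals and 70.9 to 229 in rde-4 at 20 °C. No mRNA of array carriers was sequenced, so the level of rde-4 message in them is not known. saeg-1 small RNAs measured 104 to 216 CPM over the 20 array libraries, and the log2 differences from rde-4 lay between -0.08 and 0.08 with none past the threshold.

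Whole pigSi3 F3 animals held 626, 509 and 998 CPM of saeg-2 small RNAs, below every pigSi3 library. Replicates 1 and 3 lay above all 11 rde-4 libraries and replicate 2 at the top of their range. The log2 difference from rde-4 was 0.73 (SE 0.171) and did not pass the threshold (adjusted p = 0.141), where 2 of 11611 genes, or 0.0172%, were called. It was 0.40 without F3 replicate 3. No rde-4 library was listed with these F3 libraries, so all 11 served as controls. saeg-1 small RNAs measured 227, 193 and 230.3 CPM in pigSi3 F3 (log2 0.44, adjusted p = 0.29).

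At 25 °C the difference in saeg-2 small RNAs between N2 and rde-4 was wider than at 20 °C. N2 measured 4566, 4128 and 3066 CPM and rde-4 measured 123, 120.2 and 143 CPM. The N2 libraries spanned the N2 range at 20 °C, whereas each rde-4 library at 25 °C was lower than every other library of the series. The fold between N2 and rde-4 was 29.1 (log2 4.86, SE 0.236, adjusted p = 8.25e-08), where 11.8% of 12762 genes were higher. Between temperatures the log2 difference was -1.65 in rde-4 (SE 0.207, adjusted p = 4.52e-05, with 21.6% of genes lower) and 0.26 in N2 (95% interval -0.17 to 0.69, adjusted p = 0.328). The effect of rde-4 at 25 °C exceeded that at 20 °C by 1.91 (SE 0.287, adjusted p = 0.00607), a contrast in which 2.13% of genes were called. Temperature and the place of the libraries in the records cannot be told apart here, and with library totals as the scale the median over all genes moved by up to 0.449 between temperatures in rde-4.

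saeg-1 small RNAs at 25 °C measured 919.7, 540.0 and 484 CPM in N2 and 204, 147 and 261 CPM in rde-4, without overlap. The log2 difference was 1.60 (SE 0.276, adjusted p = 0.00131), and it did not differ by the test from that at 20 °C (difference 0.38, 95% interval -0.44 to 1.20, adjusted p = 0.675). In N2 saeg-1 small RNAs were higher at 25 °C than at 20 °C by 0.78 (adjusted p = 0.0381, with 37.6% of genes called). This call rested on the scaling and on single libraries. It was 0.43 (adjusted p = 0.205) with library totals in place of TMM, 0.43 (adjusted p = 0.207) without N2 replicate 1 at 25 °C, and 0.82, 0.67 and 0.60 (adjusted p = 0.0515, 0.115 and 0.144) without N2 replicate 1, 2 or 3 at 20 °C.

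In isolated neurons, where the transgene supplies RDE-4, saeg-2 small RNAs were abundant in pigSi3 and in WT. They measured 4015 and 3636 CPM in WT, 4155 and 3526 in pigSi3, and 514 and 651 in rde-4. WT and pigSi3 overlapped each other and lay above both rde-4 libraries. The difference from rde-4 was 6.52-fold in each (log2 2.70 in WT, adjusted p = 2.7e-09, and 2.71 in pigSi3, adjusted p = 1.15e-08, SE 0.163 for both), and that between pigSi3 and WT was 0.00 (95% interval -0.32 to 0.32, adjusted p = 0.999, with 2.18% of genes called). Of 7537 genes, 1.47% were higher in WT and 0.464% in pigSi3, and in pigSi3 saeg-2 stood at rank 4 by p. WT and pigSi3 share the rde-4 controls. Small RNAs of the 10 neuron markers moved with these groups, summing to 2341 to 2662 CPM in WT, 1682 to 2480 in pigSi3 and 802 to 976 in rde-4. Those of the 6 muscle markers summed to 350.2 to 452, 196 to 340 and 145 to 162 CPM, with 5, 4 and 5 of the 6 at 0 throughout. Those of the 8 germline markers summed to 1228 to 1588 CPM over the neuron libraries and 875 to 1968 in whole animals. Small RNAs of neurons and of germline therefore cannot be told apart here. The part of these markers in the saeg-2 difference was not tested.

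saeg-1 small RNAs did not pass the test in neurons. They measured 595 and 511 CPM in WT, 537 and 547 in pigSi3 and 400.3 and 490.3 in rde-4, so the rde-4 neurons held about as much as N2 whole animals. The log2 differences were 0.30 in WT (95% interval -0.08 to 0.68, adjusted p = 0.483) and 0.26 in pigSi3 (-0.12 to 0.65, adjusted p = 0.943). Among rde-4 libraries, saeg-1 small RNAs were higher in neurons than in gonads by 1.47 (SE 0.124, adjusted p = 0.000305, with 29.3% of genes called). The neuron strain also carried otIs356, so strain and tissue cannot be told apart.

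In gonads saeg-2 small RNAs rose with pigSi3 and saeg-2 mRNA fell. rde-4 mRNA itself was at 28.1 ± 6.15 CPM in rde-4 gonads and 29.6 ± 3.57 in pigSi3 gonads (SD, n = 3 each). Because the mutant allele gives rde-4 reads as well, these counts cannot show whether a small amount of transgene message was present. The small RNAs measured 2722 and 2780.4 CPM in pigSi3 and 472, 567 and 451 CPM in rde-4, with no overlap. The difference was 5.24-fold (log2 2.39, SE 0.219, adjusted p = 0.000427), rank 15 by log2 difference among 11517 genes, of which 0.512% were higher. saeg-2 mRNA measured 4.47, 4.21 and 3.23 CPM in pigSi3 gonads, from 40, 83 and 21 counts, and 47.1, 46.7 and 53.8 CPM in rde-4 gonads, from 1900, 303 and 360 counts. Each rde-4 library held about an order of magnitude more than each pigSi3 library. The mRNA was 12.4-fold lower in pigSi3 (log2 -3.64, SE 0.387, adjusted p = 0.000784), rank 12 from the lowest log2 difference and rank 4 by p among 10569 genes, of which 0.360% were lower.

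**Figure D2:**
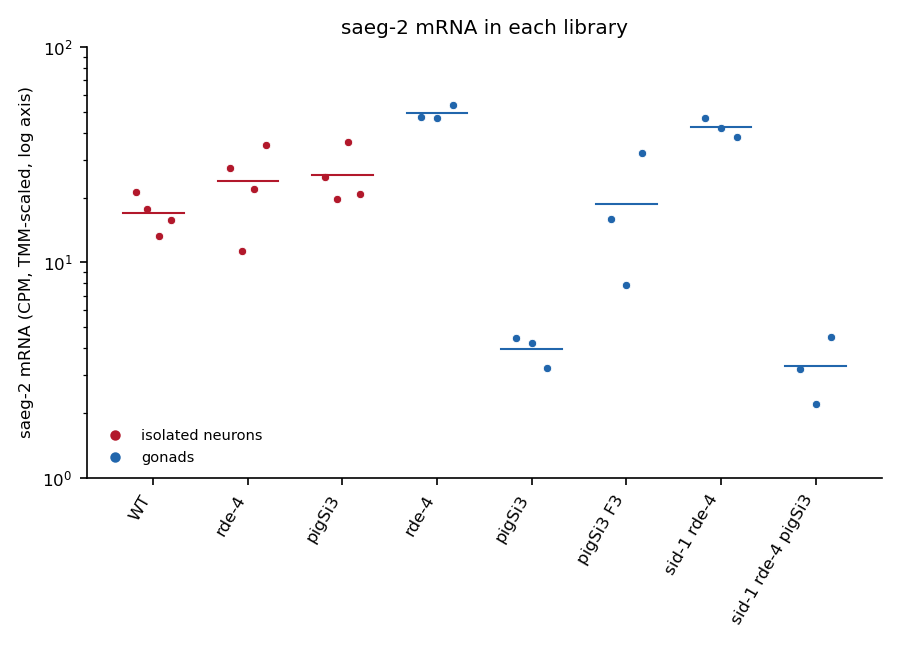
saeg-2 mRNA level in each library (CPM scaled by TMM, log axis) by group, with neurons in red and gonads in blue; points are libraries and lines are group means. The 6 gonad libraries with pigSi3 lie between 2.20 and 4.53 CPM, below the other gonad and all neuron libraries.

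In the neuron libraries saeg-2 mRNA did not follow its small RNAs, which cannot be told apart there from small RNAs of the germline. It measured 21.1, 17.6, 13.2 and 15.8 CPM in WT, 27.5, 11.3, 22.0 and 35.0 in rde-4 and 24.9, 19.7, 36 and 20.7 in pigSi3. The 3 groups overlapped, over counts of 94 to 275 per library. The log2 difference from rde-4 was -0.40 in WT (95% interval -1.11 to 0.31, adjusted p = 0.56) and 0.13 in pigSi3 (-0.58 to 0.84, adjusted p = 0.907), where 0.418% and 0.0315% of genes were called. The pigSi3 effect on saeg-2 mRNA was lower in gonads than in neurons by -3.71 (SE 0.542, adjusted p = 0.00188), rank 3 by p among 14488 genes, of which 0.0483% were lower. The same contrast for saeg-2 small RNAs was -0.26 (95% interval -0.91 to 0.39, adjusted p = 0.888, with 0.266% called). For saeg-1 the contrast was -2.12 in mRNA (adjusted p = 0.546) and 1.02 in small RNA (adjusted p = 0.347), and for egl-4 mRNA it was -0.93 (adjusted p = 0.803). These contrasts were added after the values were seen.

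Loss of SID-1 did not detectably alter either difference of saeg-2. The small RNAs measured 634 and 793 CPM in sid-1 rde-4 gonads and 2310.0 and 2803 CPM when pigSi3 was added, again without overlap. The pigSi3 difference was 3.97-fold (log2 1.99, SE 0.248, adjusted p = 0.00833, with 0.469% of genes higher). It lost its call without sid-1 rde-4 replicate 1 (1.92, adjusted p = 0.121) or 2 (2.05, adjusted p = 0.108) and without sid-1 pigSi3 replicate 1 (2.08, adjusted p = 0.0529) or 2 (1.89, adjusted p = 0.0692), each of which leaves 1 library in a group that is then assumed to vary like the others. saeg-2 mRNA measured 46.7, 42.1 and 38.1 CPM in sid-1 rde-4 gonads, from 296, 203 and 112 counts, and 3.19, 2.20 and 4.53 CPM in sid-1 pigSi3 gonads, from 14, 16 and 19 counts. The groups were as far apart as those with SID-1. The mRNA was 12.9-fold lower (log2 -3.68, SE 0.413, adjusted p = 0.00579, and -3.71 with adjusted p = 0.0522 without sid-1 pigSi3 replicate 1), with the smallest p of the 10569 genes, of which 4, or 0.0378%, were lower.

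The difference between the pigSi3 effects without and with SID-1 was -0.40 for saeg-2 small RNAs (95% interval -1.11 to 0.32, adjusted p = 0.619, with 1.37% of genes called) and -0.05 for saeg-2 mRNA (-1.20 to 1.10, adjusted p = 0.994, with 0.416% called). These intervals leave room for a change of either sign. Between sid-1 pigSi3 and pigSi3 gonads saeg-2 differed by 0.03 in small RNA (95% interval -0.50 to 0.56, adjusted p = 0.996, with 0.443% of genes called) and -0.26 in mRNA (-1.17 to 0.65, adjusted p = 0.846, with 0.0189% called). As a check of the labels, sid-1 mRNA averaged 67.2 CPM in rde-4 gonads and 33.3 in sid-1 rde-4 gonads (log2 -1.02, adjusted p = 0.0023), so the mutant allele still gave sid-1 reads. sid-1(qt9) in the absence of pigSi3 moved saeg-2 by 0.43 in small RNA (adjusted p = 0.324) and -0.21 in mRNA (adjusted p = 0.833, with 0.388% of genes called).

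Genes with both changes were few. Of 7931 genes tested in both gonad assays, 45 had more small RNA and 33 less mRNA in pigSi3, and 4 had both: saeg-2, Y102A5C.6, Y41C4A.12 and Y55F3BR.2 (8.89% of the first list and 12.1% of the second). In the sid-1 background the lists held 35 and 3 genes, and saeg-2 was the single gene in both (2.86% and 33.3%). saeg-2 was thus the 1 gene with more small RNA and less mRNA in both pigSi3 comparisons, which have no library in common but are from a single fit per assay. The lists depend on the libraries and the tool: genes called in gonad mRNA numbered 51 in pigSi3 (21 to 109 over the alternatives) and 13 in the sid-1 background (0 without sid-1 pigSi3 replicate 1, 138 with DESeq2). These counts were chosen after the values were seen.

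**Figure D3:**
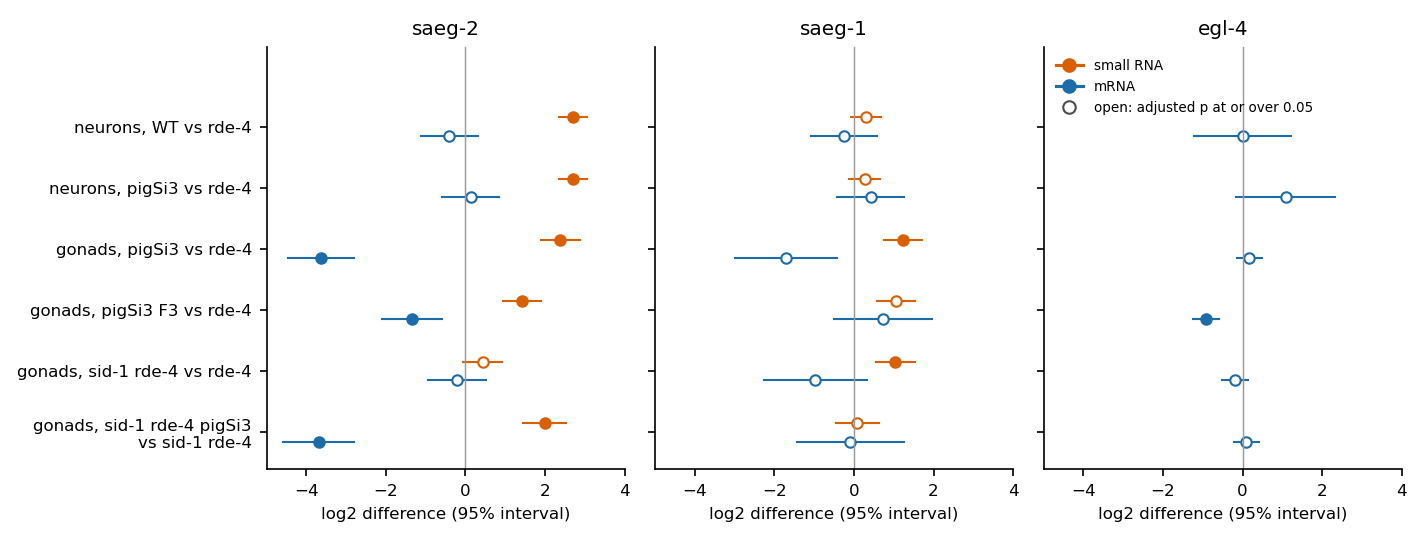
Log2 differences with 95% intervals of saeg-2, saeg-1 and egl-4 in neurons and gonads, with small RNA in orange and mRNA in blue; filled points have an adjusted p under 0.05. In both gonad comparisons of pigSi3 the saeg-2 small RNA difference lies at or above 1.99 and the mRNA difference at or below -3.64.

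saeg-1 small RNAs in gonads were higher in pigSi3 than in rde-4, and also in sid-1 rde-4 without any transgene. They measured 181, 183 and 171 CPM in rde-4, 422 and 465 in pigSi3, 331 and 455 in sid-1 rde-4 and 339 and 407 in sid-1 pigSi3. The rde-4 group stood apart below the rest, and sid-1 rde-4 overlapped both pigSi3 groups. Against rde-4 the log2 difference was 1.23 in pigSi3 (SE 0.219, adjusted p = 0.0212) and 1.04 in sid-1 rde-4 (SE 0.219, adjusted p = 0.0305, with 0.755% of genes higher), and within the sid-1 background pigSi3 differed by 0.08 (95% interval -0.46 to 0.62, adjusted p = 1). The difference between the pigSi3 effects was -1.15 (SE 0.329) and did not pass the threshold (adjusted p = 0.135). The call in pigSi3 was lost without rde-4 replicate 1 (1.24, adjusted p = 0.0605), pigSi3 replicate 1 (1.26, adjusted p = 0.155) or pigSi3 replicate 2 (1.22, adjusted p = 0.0996). That in sid-1 rde-4 was lost without rde-4 replicate 1, 2 or 3 (1.05, 1.07 and 1.05, adjusted p = 0.069, 0.068 and 0.0619) or sid-1 rde-4 replicate 1 or 2 (1.19 and 0.92, adjusted p = 0.0989 and 0.177).

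saeg-1 mRNA in gonads was low and its groups were wide. It measured 23.6, 14.8 and 30.2 CPM in rde-4 and 5.71, 8.31 and 7.08 CPM in pigSi3, without overlap, and 7.42, 12.0 and 16.0 CPM in sid-1 rde-4 and 10.2, 12.4 and 9.05 CPM in sid-1 pigSi3, which overlapped. The log2 difference of pigSi3 from rde-4 was -1.72 (SE 0.595, adjusted p = 0.474). It was -1.72 with an adjusted p of 0.0365 when the 3 pigSi3 F3 libraries were left out of the fit. In the sid-1 background the difference was -0.09 (95% interval -1.42 to 1.25, adjusted p = 0.964).

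**Figure D4:**
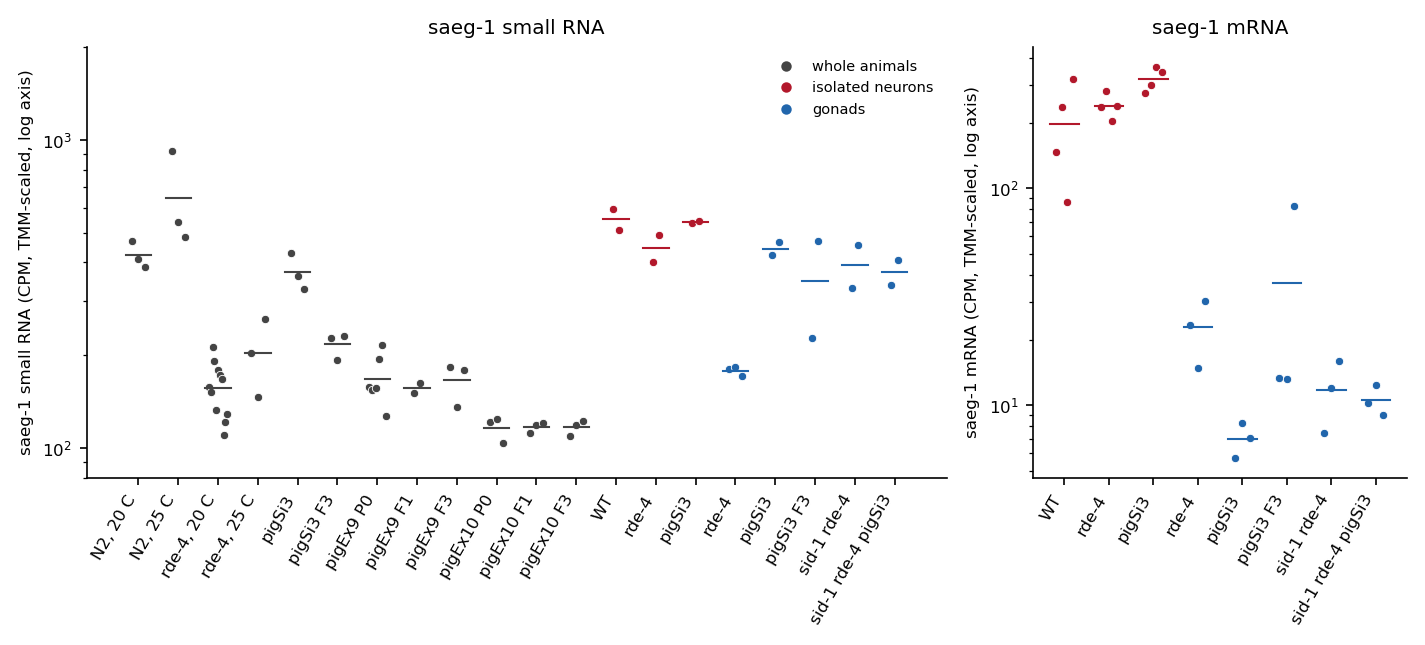
saeg-1 small RNA (left) and mRNA (right) level in each library (CPM scaled by TMM, log axes) by group, with whole animals in grey, neurons in red and gonads in blue; points are libraries and lines are group means. Neuron mRNA libraries lie between 86.4 and 364 CPM and gonad ones between 5.71 and 82.9.

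Gonads of pigSi3 F3 descendants held intermediate levels of saeg-2. The small RNAs measured 1537 and 921 CPM, between rde-4 and pigSi3, and the mRNA measured 15.9, 7.87 and 32.2 CPM, also between them. Neither range overlapped that of rde-4 or that of pigSi3. The small RNA difference from rde-4 was 1.41 (SE 0.216, adjusted p = 0.0442), where 0.130% of genes were higher, and it was lost without rde-4 replicate 1, 2 or 3 (1.35, 1.50 and 1.35, adjusted p = 0.202, 0.0824 and 0.166), with library totals in place of TMM (1.28, adjusted p = 0.0672) and with the replicate block (1.35, adjusted p = 0.261). The small RNA difference was 0.93 without F3 replicate 1 and 1.76 without F3 replicate 2. Each of these leaves 1 F3 library, so the spread within F3 is not measured. Replicate 1 of F3 was the shallowest gonad small RNA library, with 1841973 counts. The mRNA difference was -1.34 (SE 0.348, adjusted p = 0.0111), where 14.4% of genes were lower. It was -1.18 (adjusted p = 0.0563) without F3 replicate 1, -1.97 (adjusted p = 0.0013) without F3 replicate 3, and -1.33 (adjusted p = 0.0548) with the rde-4 and F3 libraries alone. Between pigSi3 and F3 gonads saeg-2 small RNAs differed by 0.98 (SE 0.242, adjusted p = 0.0592, with 2.49% of genes called). With 1 F3 library left, they differed by 1.46 without F3 replicate 1 and by 0.63 without F3 replicate 2. saeg-2 mRNA was lower in pigSi3 than in F3 by -2.30 (SE 0.377, adjusted p = 0.0006, with 32.1% of genes called), and by -1.67 (adjusted p = 0.00161) without F3 replicate 3. The comparisons of F3 and of pigSi3 with rde-4 share the rde-4 libraries.

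The F3 gonad mRNA libraries stood apart in other ways. Their 8 germline markers summed to 3360 to 4139 CPM against 7013 to 7035 in rde-4, the 4 oocyte markers to 3196 to 3826 against 8092 to 9999, the 6 intestine markers to 231 to 769 against 1013 to 2038, and the 4 sperm markers to 235 to 540 against 64.1 to 239. Of all genes 13.6% were higher and 14.4% lower. Their part in the saeg-2 result was not tested. saeg-1 mRNA measured 13.4, 13.2 and 82.9 CPM in these libraries in replicates 1 to 3, with replicate 3 far above the others. The log2 difference from rde-4 was 0.72 (adjusted p = 0.394) and turned to -0.71 (adjusted p = 0.165) without replicate 3. Its log2 difference between pigSi3 and F3 was -2.44 (adjusted p = 0.00781) and depended on that library, being -1.0 (adjusted p = 0.0425) without it. saeg-1 small RNAs in F3 gonads measured 228 and 469 CPM (log2 1.05, SE 0.22, adjusted p = 0.0858). This difference was 1.43 without F3 replicate 1 and 0.49 without F3 replicate 2, each with 1 F3 library left.

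egl-4 mRNA did not move with pigSi3 in gonads. It measured 189.8, 165 and 171 CPM in rde-4, 197, 212 and 190.1 in pigSi3, 152, 126 and 182 in sid-1 rde-4 and 147, 151 and 181 in sid-1 pigSi3. The pigSi3 libraries lay just above those of rde-4, and the sid-1 groups overlapped. The log2 difference of pigSi3 was 0.17 with SID-1 (95% interval -0.15 to 0.49, adjusted p = 0.909) and 0.10 without it (-0.23 to 0.42, adjusted p = 0.806), intervals that hold no change of the size seen for saeg-2. In pigSi3 F3 gonads egl-4 mRNA measured 74.6, 108 and 83.4 CPM, below every other gonad library. It fell by 0.92 on the log2 scale from rde-4 (SE 0.151, adjusted p = 0.000706), in the libraries whose germline and oocyte markers were also lower, and was higher in pigSi3 than in F3 by 1.09 (SE 0.151, adjusted p = 0.000174).

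In neurons egl-4 mRNA varied widely within groups. It measured 83.8, 297, 64 and 469 CPM in WT, 219.9, 359, 187 and 149 in rde-4 and 371, 485, 414 and 712 in pigSi3. All pigSi3 libraries lay above the rde-4 ones, and WT overlapped both. The log2 difference from rde-4 was 1.09 in pigSi3 (SE 0.578, adjusted p = 0.6) and 0.00 in WT (95% interval -1.23 to 1.23, adjusted p = 0.999). Between pigSi3 and WT it was 1.09 (adjusted p = 0.254, with 0.386% of genes called), and 1.75 (adjusted p = 0.0395) without WT replicate 4.

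The neuron markers varied alongside. Their sum was 11965, 21075, 6608 and 37682 CPM in WT, 30766, 39493, 27963 and 16616 in rde-4 and 30947, 37147, 36406 and 44590 in pigSi3. The WT libraries with the least egl-4 mRNA, replicates 1 and 3, had the lowest neuron marker sums of all 12, and the muscle markers in them summed to 28839 and 22028 CPM against 7424 to 18903 in the other 10. The part of this in the egl-4 values was not tested. saeg-1 mRNA, at 147, 236, 86.4 and 318 CPM in WT, was also lowest in those libraries, whereas saeg-2 mRNA in them, 21.1 and 13.2 CPM, was the highest and the lowest of WT.

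**Figure D5:**
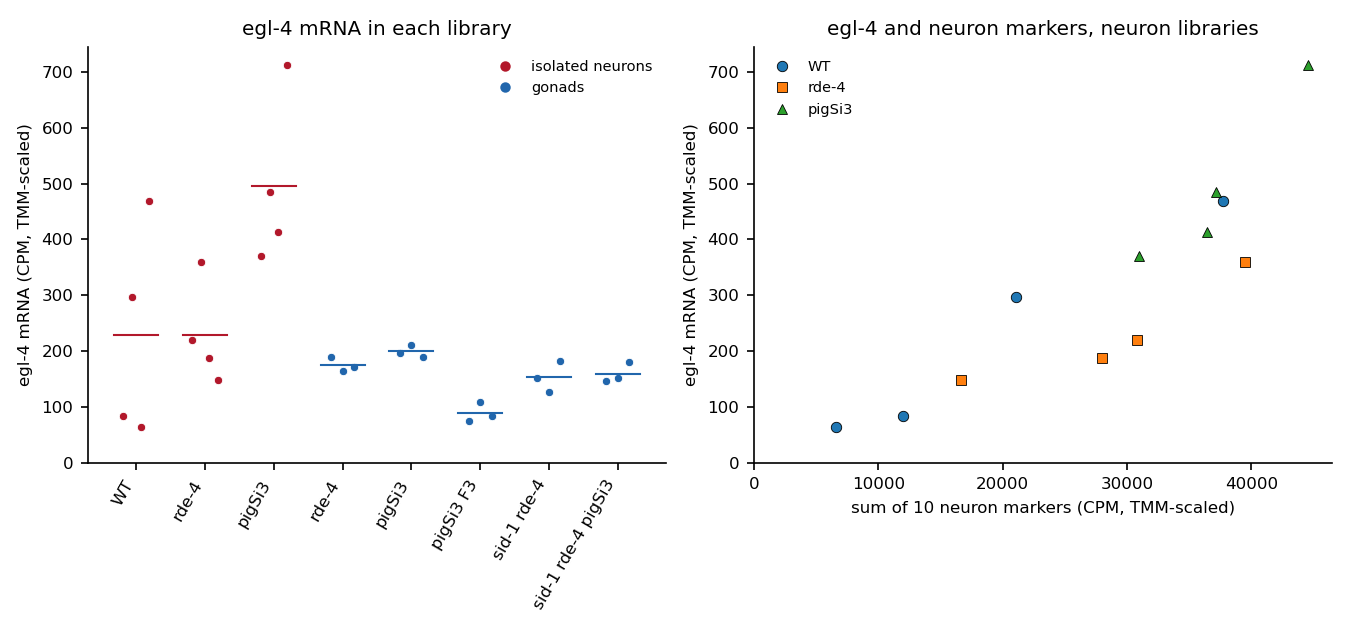
egl-4 mRNA level in each library by group (left; CPM scaled by TMM, points are libraries, lines group means) and, for the 12 neuron libraries, against the summed level of 10 neuron markers (right; CPM). The 2 WT libraries with the lowest marker sums, 6608 and 11965 CPM, have 64 and 83.8 CPM of egl-4.

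saeg-1 mRNA was higher in neurons than in gonads, and saeg-2 mRNA was present in both. Over all neuron libraries saeg-1 mRNA lay between 86.4 and 364 CPM and over all gonad libraries between 5.71 and 82.9. In rde-4 it was higher in neurons than in gonads by 3.93 (log2, SE 0.389, adjusted p = 2.05e-06), in a comparison that called 73.2% of genes. saeg-2 mRNA differed between rde-4 tissues by -0.54 (95% interval -1.27 to 0.20, adjusted p = 0.167), and by -1.55 (adjusted p = 0.00785) when libraries were scaled by their totals. Its small RNAs differed by 0.38 (adjusted p = 0.0796, and 0.54 with adjusted p = 0.049 without gonad rde-4 replicate 2). egl-4 mRNA was higher in neurons by 0.94 (adjusted p = 0.0461) but lower by 0.29 when libraries were scaled by their totals (log2 -0.29, adjusted p = 0.356), a scaling under which the median over all genes moved by 1.11, and the call was lost without gonad rde-4 replicate 1 (1.09, adjusted p = 0.0675), 2 (0.82, adjusted p = 0.152) or 3 (0.80, adjusted p = 0.162).

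In the order of group means, saeg-2 small RNAs were highest in N2 at 25 °C (3920.0 ± 772 CPM, SD, n = 3), pigSi3 neurons (3840.5 ± 445, n = 2), WT neurons (3825 ± 268, n = 2) and N2 at 20 °C (3652 ± 494, n = 3), each overlapping the next. Below a gap came pigSi3 gonads (2751 ± 41.4, n = 2), sid-1 pigSi3 gonads (2556 ± 348, n = 2) and whole pigSi3 animals (2457 ± 207, n = 3), which also overlapped in turn. After a second gap, 12 groups from pigSi3 F3 gonads (1229 ± 436, n = 2) to pigEx10 P0 (327 ± 47.3, n = 3) overlapped from neighbour to neighbour. rde-4 at 25 °C stood alone at the end (129 ± 12.5, n = 3). For saeg-2 mRNA the order was rde-4 and sid-1 rde-4 gonads (49.2 ± 3.97 and 42.3 ± 4.31 CPM, n = 3 each), then, after a gap, the 3 neuron groups with pigSi3 F3 gonads among them (25.4 ± 7.48 to 16.9 ± 3.32), and then, after a second gap, pigSi3 and sid-1 pigSi3 gonads (3.97 ± 0.654 and 3.31 ± 1.17, n = 3 each).

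The genes whose small RNA profile over the 12 whole-animal group means was most like that of saeg-2 were M04D5.1 (Pearson r 0.952), Y39B6A.3 (0.949) and rabx-5 (0.940), among 8283 genes with a mean of at least 5 CPM. Their group means spanned 8.72 to 83.4, 34.8 to 79.6 and 54.1 to 104 CPM, against 129 to 3920.0 for saeg-2. For saeg-1 they were oac-59 (0.975), hint-3 (0.974) and vps-52 (0.972). Over the 8 mRNA group means and 9011 genes, no gene came above 0.752 (ndx-6) for saeg-2, followed by folt-1 (0.737) and Y54G11A.7 (0.724), whereas ZC581.9 (0.987), C29A12.6 (0.985) and F31E3.8 (0.985) were most like saeg-1 and C02B10.5 (0.996), sdha-1 (0.990) and D1005.1 (0.986) most like egl-4. These points share libraries and groups, so the r values are descriptions.

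No gene of the rest of the pathway passed the edgeR test in pigSi3 gonads or neurons, while some passed in other comparisons. The lists held 49 genes besides the 3 members. They covered EGL-4 and histone deacetylases, cGMP synthesis and breakdown, sensory channels, odour receptors and G proteins, AWC identity and olfactory plasticity, and small RNA factors of odour adaptation. In pigSi3 gonads, 0 of 33 such genes tested in small RNA and 0 of 26 tested in mRNA passed the threshold, and in pigSi3 neurons 0 of 24 and 0 of 45. Of all genes, in either direction, 228 of 11517 were called in gonad small RNA and 51 of 10569 in gonad mRNA. In neurons 73 of 7537 were called in small RNA and 4 of 12693, or 0.0315%, in mRNA. Counts near 0 thus say nothing particular to these lists. DESeq2 called 1, 0, 0 and 1 of the list genes, in that order, where it called 511, 109, 66 and 133 of all genes. In the edgeR test 3, 3, 1 and 8 list genes had an unadjusted p under 0.05. The share of all genes at that level is not given here, so these counts are not a result about the lists. In whole animals, 4 of 34 had more small RNA and 4 less in N2, where 14.5% of all genes were higher and 16.9% lower, and 0 had more and 4 less in pigSi3, where 1.92% were higher and 3.94% lower. At 25 °C, 4 of 34 had more and 5 less in N2, where 11.8% of all genes were higher and 13.0% lower. In F3 gonad mRNA 1 of 26 was higher and 7 lower, where 13.6% of all genes were higher and 14.4% lower.

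In the list of EGL-4 and histone deacetylases, hda-3, which encodes a histone deacetylase, had small RNAs at 218 ± 10.7 CPM in N2 and 152 ± 2.18 CPM in rde-4 (SD, n = 3 each, log2 0.46, adjusted p = 0.00372). The list also held hda-1 and hda-2, and only HDA-2 is named above as acting with SAEG-1 and SAEG-2. hda-2 was not among the genes higher in N2. Of all genes, 14.5% were higher in N2. The other genes of this list higher in N2 were saeg-2 and saeg-1, and in pigSi3 only these 2 were higher, where 1.92% of all genes were. Both were chosen beforehand, so a share of the list says nothing beyond them. In F3 gonads hda-1 and hda-3 mRNA were lower by -0.42 and -0.48 (adjusted p = 0.00826 and 0.00244), in the libraries described above, where 14.4% of genes were lower.

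Small RNAs of tax-4, a subunit of the cGMP-gated channel of sensory neurons, ran opposite to those of saeg-2 at a far lower level. They measured 0.0728 ± 0.0362 CPM in N2, 0.68 ± 0.299 in pigSi3 and 2.3 ± 0.736 in rde-4 (SD, n = 3 each), with log2 differences from rde-4 of -4.95 (adjusted p = 7.91e-05) and -1.72 (adjusted p = 0.0167). The N2 level is near the floor, in libraries of 19354135 to 25129784 gene counts, so the size of the N2 difference is uncertain. tax-4 was 1 of 4 tested channel genes lower in N2, where 16.9% of all genes were lower. With osm-9, a TRPV channel gene (log2 -0.74, adjusted p = 0.013), it made 2 of 4 in pigSi3, where 3.94% were lower. In pigEx9 P0 tax-4 was lower (-4.77, adjusted p = 0.0078) and osm-9 higher (0.93, adjusted p = 0.00746), with overlapping ranges.

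Among 9 tested genes of cGMP synthesis and breakdown, gcy-28, a receptor guanylyl cyclase gene, was higher in N2 (0.47, adjusted p = 0.00387) and pde-3, a phosphodiesterase gene, lower (-0.43, adjusted p = 0.0153). These are 1 of 9 in each direction, near or below the 14.5% of all genes higher and 16.9% lower, so they are not a result about the list. In pigSi3, where 3.94% of all genes were lower, gcy-8, a guanylyl cyclase gene of the AFD thermosensory neurons, was lower (6.82 ± 0.856 against 18.3 ± 4.13 CPM, SD, n = 3 each, log2 -1.43, adjusted p = 0.0111). gcy-23, another AFD cyclase gene, was lower in pigEx9 P0 (-0.94, adjusted p = 0.000168) and in pigEx10 P0 (-1.08, adjusted p = 0.000997), each against its own rde-4 libraries. At 25 °C, where 13.0% of genes were lower in N2, gcy-12 (-1.66, adjusted p = 0.00715) and gcy-23 (-1.11, adjusted p = 0.0159) were lower and gcy-28 was higher (0.51, adjusted p = 0.046), and tax-4 was again lower (-4.64, adjusted p = 0.00132).

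Of the AWC genes, tir-1, an adaptor of the pathway that sets AWC asymmetry, had fewer small RNAs than in rde-4 in N2 (-0.65, adjusted p = 0.0157), pigSi3 (-0.80, adjusted p = 0.0208) and WT neurons (-1.61, adjusted p = 0.032, with 1.92% of genes lower). The call in WT neurons, from 2 libraries per group, was lost with DESeq2, which called 0 of the 24 list genes tested there. unc-43, the CaMKII gene, was lower in N2 at 20 °C (-0.80, adjusted p = 0.00212) and 25 °C (-1.48, adjusted p = 0.000817), and pkc-1, a protein kinase C gene, was higher at 20 °C (0.43, adjusted p = 0.0447). tax-6, which encodes calcineurin, was higher in N2 at 25 °C (1.33, adjusted p = 0.00158). In that comparison goa-1, a G protein subunit gene, was lower (-0.48, adjusted p = 0.0318, with overlapping ranges) and grk-2, a receptor kinase gene, higher (1.65, adjusted p = 0.0144). Of the small RNA factors, rrf-1, an RNA-dependent RNA polymerase gene, was higher in N2 at 20 °C (0.35, adjusted p = 0.0387) and nrde-3, the gene of a nuclear Argonaute, at 25 °C (0.75, adjusted p = 0.0329). Over all lists, 4 of 34 genes were higher and 4 lower in N2 at 20 °C, and 4 and 5 at 25 °C. Of all genes, 14.5% were higher and 16.9% lower at 20 °C, and 11.8% and 13.0% at 25 °C. The calls in N2 are thus not a result about the lists. In pigSi3, where tir-1 was lower, 3.94% of all genes were lower.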

How the data were processed

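The values used are the deposited counts of reads in each gene of 91 libraries. Per the labels' protocols, RNA was taken with TRIZOL, NEBNext or TruSeq kits served for small RNA and Nextera XT for mRNA. Per the submitters' processing notes, cutadapt, FastQC, HTSeq and DESeq2 were used on ce10, without versions. Not given in the sources used here are the aligner, the annotation and the use of strand, so small RNAs sense and antisense to a gene cannot be told apart. HTSeq lines for reads in no gene (19.8 to 79.9% of the reads assigned to a gene or to none) stayed out of totals and tests. In small RNA they made 71.1 to 79.9% in neurons, 19.8 to 25.6% in gonads and 24.4 to 61.2% in whole animals. Small RNA comparisons of neurons with gonads thus rest on unlike shares of the reads.

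edgeR 4.0.16 (R 4.3.3) served to test the counts (TMM, filterByExpr, robust quasi-likelihood F test), adjusted over all genes tested in a comparison, in 40 comparisons, of which 2 (gonads against neurons) were added after values were seen. The code was tested on simulated data. Libraries under 100000 gene counts were left out (1), and no library was a copy of another. Whole-animal libraries were compared within 6 sets taken from the order of the records, which the labels do not name. Alternatives were DESeq2 1.42.0, library totals in place of TMM, no filter on low counts, a replicate block, other controls and leaving out each library. Replicate numbers paired the N2, rde-4 and pigSi3 whole-animal libraries (same-numbered deviations correlated at 0.102 to 0.384 in 9 of 9 pairs) and N2 at 20 and 25 °C (0.282 to 0.431 in 3 of 3). For likeness of profiles, log2(CPM + 1) was used. Intervals are 95% and cover the spread between these libraries.

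The genes and lists were chosen with earlier results of these data known. Pathway genes are named where they pass 0.05 against rde-4 in the comparisons of N2, WT or a transgene, at most 4 per list. No sequence is printed, and coordinates were not used, because the available reference is of a build other than that of the tables.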

Additional observations from a re-analysis of the deposited data

Results flagged for a closer look

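The difference in saeg-2 small RNAs between N2 and rde-4 was larger at 25 °C than at 20 °C by 1.91 on the log2 scale (SE 0.287, adjusted p = 0.00607), a test of the difference itself. It passed in all 17 alternatives run. The rde-4 libraries held 123, 120.2 and 143 CPM at 25 °C, and the libraries of each temperature stand in separate places in the records.

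The effect of pigSi3 on saeg-2 mRNA differed between gonads and neurons by -3.71 (SE 0.542, adjusted p = 0.00188), also tested directly, and passed in all 17 alternatives run. The neuron strains carry otIs356 and the gonad strains do not.

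By Dixon's ratio, which tests 1 extreme value at a time, no library of saeg-2, saeg-1 or egl-4 stood out in the groups of 4 to 6 libraries. The ratio cannot show a pair of high values, such as saeg-2 small RNAs in pigEx9 P0 replicates 4 and 5 (1329 and 1350.1 CPM, against 483 to 522 in the other 4).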

How the results depend on the processing

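For saeg-2, saeg-1 and egl-4, 92 results were recomputed under 1048 alternatives. Of these, 935 kept direction and side of the threshold, 36 lost the call, 18 gained it, 58 changed sign without a call under either setting (in 29 results) and 1 changed the sign of a called value. For the last, egl-4 mRNA in rde-4 neurons against gonads, the log2 difference was -0.29 with library totals, and 0.79 (not called) without a filter. With library totals, saeg-2 pigSi3 against N2 became -0.26, saeg-1 N2 at 25 °C against 20 °C 0.43 and saeg-2 F3 gonad small RNA 1.28 (all no longer called), and saeg-2 mRNA in rde-4 neurons against gonads -1.55 (called). With DESeq2, calls were gained for saeg-2 in whole pigSi3 F3 (0.74), saeg-1 in F3 gonad small RNA (1.03), saeg-2 pigSi3 against F3 gonad small RNA (0.99), the saeg-1 small RNA difference of pigSi3 effects by SID-1 (-1.15) and saeg-2 small RNA in neurons against gonads (0.42). Without a filter, saeg-1 in F3 gonads (1.06), saeg-2 pigSi3 against F3 gonads (1.02) and the saeg-1 small RNA contrast of gonads and neurons (1.11) gained calls. With all 11 rde-4 libraries, saeg-2 in pigEx9 P0 (0.89) and saeg-1 in rde-4 at 25 °C against 20 °C (0.52) were called. In gonad mRNA, saeg-1 in pigSi3 was called (-1.72) without the 3 F3 libraries, and saeg-2 in F3 (-1.33) and saeg-1 pigSi3 against F3 (-2.39) lost the call with only their 2 groups. The cause of these changes was not tested.

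With the replicate block, saeg-1 in pigSi3 (1.22) and sid-1 rde-4 (1.02) and saeg-2 in F3 (1.35), all gonad small RNA, lost the call, and no other call of the 3 genes changed. Replicate numbers also paired N2 at 20 °C with N2 at 25 °C (0.282 to 0.431 in 3 of 3 pairs), where the block changed no call of saeg-2 or saeg-1. Same-numbered libraries of rde-4 at 20 °C and N2 at 25 °C correlated at 0.0970 to 0.304. In gonads, in neurons and in rde-4 at 25 °C, numbers did not pair the samples throughout. In gonad mRNA, same-numbered deviations correlated at -0.602 to 0.492 and differently numbered ones at up to 0.686. What such gonad mRNA libraries share was not tested.

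Leaving out 1 library at a time, the log2 differences in small RNA ranged for saeg-2 from -0.63 to -0.45 (pigSi3 against N2), 0.55 to 0.93 (pigEx9 P0), 0.93 to 1.76 (F3 gonads), 0.63 to 1.46 (pigSi3 against F3 gonads), 1.89 to 2.08 (sid-1 pigSi3) and 0.22 to 0.54 (neurons against gonads). For saeg-1 they ranged from 0.43 to 0.97 (N2 by temperature), 1.22 to 1.26 (pigSi3 gonads), 0.92 to 1.19 (sid-1 rde-4), 0.49 to 1.43 (F3 gonads) and -0.20 to 0.75 (pigSi3 against F3 gonads). In mRNA they ranged for saeg-2 from -1.97 to -0.91 (F3 gonads) and -3.99 to -3.45 (sid-1 pigSi3), and for egl-4 from 0.82 to 1.75 (pigSi3 against WT neurons) and 0.67 to 1.17 (neurons against gonads). Without the shallow F3 gonad small RNA replicate 1, 1 F3 library was left, so the genes called then cannot be set against the 19 of the full fit. saeg-2 mRNA rests on 14 to 83 counts per library in pigSi3 gonads. Counts of called genes moved by over 1.5 times under some alternative in 33 of 40 comparisons, for pigSi3 against rde-4 from 750 to between 369 and 1554 (whole animals), from 228 to between 33 and 511 (gonad small RNA), from 66 to between 0 and 160 (sid-1 gonad small RNA), from 73 to between 66 and 135 (neuron small RNA) and from 4 to between 2 and 133 (neuron mRNA). The contrast of temperatures moved from 272 to between 119 and 785 and the mRNA contrast of gonads and neurons from 11 to between 3 and 45.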
